A study of Mus musculus with 6 samples.

Results

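The 38 genes described here were well-known transcriptional targets of p53, the tumour suppressor encoded by Trp53 in mice. They were chosen by name, with earlier results of these data known, and were grouped by function into cell cycle arrest (9 genes), feedback on p53 (4 genes), apoptosis and death signalling (12 genes), DNA repair and nucleotide supply (5 genes) and metabolism or stress response (8 genes). All 38 were found among the 27179 genes of the count tables, and 36 of them passed the filter of a mean of 100 normalized counts over the 6 libraries. Gdf15 and Ptprv did not pass it and were followed by their counts.

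p53 is a transcription factor that binds DNA as a tetramer and is kept low in unstressed cells by the ubiquitin ligase MDM2, itself the product of a p53 target gene. DNA damage, oncogene activity through ARF, nucleolar stress and other signals release p53 from MDM2, and the targets it then activates stop the cell cycle, repair DNA, change metabolism or start apoptosis. In mouse embryonic fibroblasts (MEFs), this pathway is the main barrier to unlimited growth in culture, and the ARF and Trp53 genes are the loci most often lost when these cells become immortal.

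RNA was sequenced from 3 immortalized MEF lines of the C57BL/6 strain, with 2 libraries from independent RNA preparations of each line. The lines lacked different proteins of the circadian clock, in which CLOCK and BMAL1 activate the Cry, Per and Nr1d genes and the CRY, PER and NR1D proteins repress CLOCK-BMAL1 or Bmal1. The Cry/Per_KO line carried null alleles of Cry1, Cry2, Per1 and Per2. The Per/Nr1d_KO line carried null alleles of Per1, Per2, Nr1d1 and Nr1d2, and the Cry/Per/Nr1d_KO line of all 6 genes, so that every group lacked Per1 and Per2 and no wild-type cells were included. The Cry/Per/Nr1d_KO line was 1 clone, isolated after CRISPR mutation of Nr1d1 and Nr1d2 in Cry/Per_KO cells, whereas the Per/Nr1d_KO line was made separately. The cells grew unsynchronized in serum-containing medium until nearly confluent, no DNA-damaging agent was given, and the Trp53 and Cdkn2a status of the lines was not given in the sources used here. With 1 line per genotype and 2 preparations per line, p-values measured only the spread between preparations, and genotype and line history cannot be told apart. In such bulk RNA, fewer cells expressing a gene and less RNA per cell cannot be told apart either.

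For the libraries of 2 lines the descriptions went against the names of the deposited count tables. The tables named for Cry/Per_KO belong to samples described as having the genotype of Cry/Per/Nr1d_KO, and the reverse. The described genotype was followed, and these groups are called the Cry/Per_KO-labelled and the Cry/Per/Nr1d_KO-labelled libraries. The Per/Nr1d_KO libraries were not affected. If the 2 labels were exchanged, the comparison between these groups would change its sign, and the 2 comparisons with Per/Nr1d_KO would trade places. RNA of all the targeted genes remained in all libraries. Nr1d1 was at 3158 and 3146 normalized counts in the Cry/Per/Nr1d_KO-labelled libraries, at 9337 and 9249 in the Cry/Per_KO-labelled ones and at 5359 and 4838 in Per/Nr1d_KO. Arntl, the Bmal1 gene, and Cry1 are repressed by NR1D and therefore bear on which libraries lacked it. Arntl was at 1191 and 1171 in the Cry/Per/Nr1d_KO-labelled libraries, at 2176 and 2208 in the Cry/Per_KO-labelled ones and at 2493 and 2455 in Per/Nr1d_KO, and Cry1 at 1698 and 1724, at 5323 and 5478 and at 1535 and 1592. Between the lines that share their origin, both were thus lower in the Cry/Per/Nr1d_KO-labelled libraries than in the Cry/Per_KO-labelled ones, which goes against the labels and with the table names. Every direction given between these groups, and the name of the reference in each comparison with Per/Nr1d_KO, therefore holds for the labels only.

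Totals ran from 53764390 to 85927236 counts per library, so that an abundant gene was limited by the spread between preparations (biological coefficient of variation 0.0393) rather than by counting. Replicates of a line correlated at 0.998 across genes (log2 CPM; genes are not independent replicates), yet differed by more than counting noise, so each was kept as a separate sample. Of 10 fibroblast markers, 7 were measured above the filter, among them Col1a1, Vim and Pdgfrb, while Thy1 stayed at 6.2 normalized counts or fewer in every library and Fap and Dcn were low. A gene was called when edgeR's quasi-likelihood test gave an adjusted p under 0.05 and the higher group lay more than 75% above the lower. All 7 were called between Per/Nr1d_KO and the Cry/Per/Nr1d_KO-labelled libraries, where 11.3% of all genes were called higher and 9.35% lower. The collagen genes Col3a1 (52.8-fold), Col1a1 (2.86-fold) and Col1a2 (1.88-fold) were higher in Per/Nr1d_KO, and S100a4 (7.11-fold), Pdgfra (3.05-fold), Pdgfrb (2.51-fold) and Vim (1.82-fold) were lower. With the median log2 fold change of chromosome 2 (-0.113) subtracted, the Vim difference fell within the limit. The summed markers of epithelial cells reached at most 140.4, of endothelial cells 225.5 and of skeletal muscle 112.8. The 6 haematopoietic markers summed to between 798.5 and 1785.6, highest in Per/Nr1d_KO. Cd14 and Cd68 carried that sum, while Hba-a1 and Cd3e were at 0 in all libraries and Ptprc and Adgre1 were below 4. The 5 neural markers summed to between 410.7 and 2013.7, highest in the Cry/Per/Nr1d_KO-labelled libraries, almost wholly through Tubb3, with Snap25 and Olig2 at 0. The part of these cells or markers in the results below was not tested.

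The DNA that p53 recognizes is a pair of 10-base half-sites, each with a central C and G, separated by a short spacer. This response element was searched for in RefSeq promoter windows of GRCm38.p6 (the assembly of mm10), from 250 bases before to 50 bases after each gene's start. A match had 2 half-sites with at most 13 bases between them and at most 2 mismatches in all, with the central bases kept. The half-site is its own reverse complement, so both strands were covered. Windows were found for 29 of the 38 genes (40 windows). There was none for Ddb2, Perp, Pmaip1, Ptprv, Rrm2b, Tnfrsf10b, Trp53inp1, Xpc and Zmat3. An element was present in 7 of the 40 windows (17.5%), against 4.09% of the 32851 windows of all genes. Of the matches, 6 are shown, each 5′ to 3′ on the strand of its gene with the half-sites in capitals and 10 bases on either side, since their genes behaved so differently in the RNA. Cdkn1a and Ccng1 were higher in Per/Nr1d_KO, Gadd45a was lower there than in the Cry/Per/Nr1d_KO-labelled libraries, and Bax, Ckap2 and Sesn1 were not called in any comparison.
Cdkn1a, chr17:29090918-29090957, plus strand: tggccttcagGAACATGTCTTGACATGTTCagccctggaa
Ccng1, chr11:40755452-40755491, minus strand: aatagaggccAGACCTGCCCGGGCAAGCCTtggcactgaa
Gadd45a, chr6:67037428-67037473, minus strand: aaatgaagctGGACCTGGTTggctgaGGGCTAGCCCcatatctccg
Bax, chr7:45467069-45467109, minus strand: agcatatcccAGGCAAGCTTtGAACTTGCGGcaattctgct
Ckap2, chr8:22185993-22186032, minus strand: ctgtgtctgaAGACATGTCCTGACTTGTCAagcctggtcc
Sesn1, chr10:41887243-41887285, plus strand: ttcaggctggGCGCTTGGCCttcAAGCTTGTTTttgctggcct
The Cdkn1a element had 1 mismatch and no spacer, and lay 51 to 32 bases before the more upstream of the 2 starts of this gene. The Ccng1 element also had 1 mismatch and no spacer, 195 to 176 bases before the start. A further match with 1 mismatch spanned the more downstream of the 2 starts of Gtse1. Those of Gadd45a, Bax, Ckap2 and Sesn1 had 2 mismatches, with spacers of 6, 1, 0 and 3 bases. The E-box CACGTG, the sequence bound by CLOCK-BMAL1 and by MYC, was present in 6 of the 40 windows (15%; Aen, Bax, Bbc3, Eda2r, Fas and Gdf15) against 7.15% of all windows. The core letters of the element bound by NR1D and ROR receptors, TAGGTCA, were in none of the 40 windows and in 2.61% of all windows, read on both strands. A match is a description of the letters, not a bound site, and a window without one says only that these letters were not in it.

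Most of the p53 targets were highest in Per/Nr1d_KO cells. Comparing to the Cry/Per/Nr1d_KO-labelled libraries, 23 of the 36 tested genes were called higher in Per/Nr1d_KO, 2 (Plk3 and Gadd45a) were called lower and 11 were not called. In the same comparison 11.3% of all 11934 genes tested were called higher and 9.35% lower. Comparing to the Cry/Per_KO-labelled libraries, 25 of the 36 were called higher, none was called lower by edgeR and 11 were not called, against 15.2% of all genes higher and 13.8% lower. The median log2 fold change of the 36 genes was 1.19 and 1.29 in these comparisons, while that of all genes tested was 0.01 and 0.03. For the count of 0, DESeq2 also called none lower, and 6 of the 36 were lower at an unadjusted p under 0.05 whatever the fold. Without the limit on the fold, these 6 also passed the adjusted p as lower, as did 4689 of all 11934 genes. Both comparisons use the same Per/Nr1d_KO libraries, so their counts are set side by side and are not independent of each other. Perp is in both counts of higher genes and passed the filter only through Per/Nr1d_KO. Without a filter on expression, 25 and 27 of all 38 genes were called higher.

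**Figure D1:**
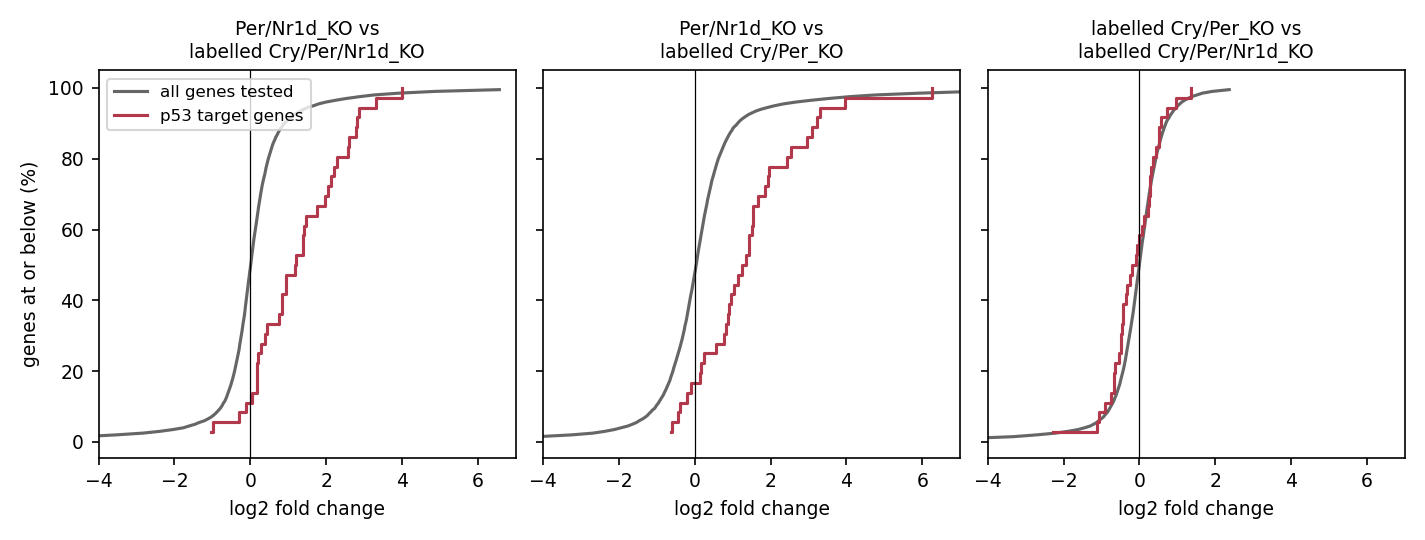
Cumulative share of genes (vertical axis, percent) at or below a log2 fold change (horizontal axis) for the 36 tested p53 target genes (red) and for all 11934 genes tested (grey) in the 3 comparisons. The red line lies to the right of the grey one in both comparisons with Per/Nr1d_KO (medians 1.19 and 1.29) and close to it between the other groups (median -0.14); the axis ends at -4 and 7, outside which some of all genes lie.

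Between the Cry/Per_KO-labelled libraries and the Cry/Per/Nr1d_KO-labelled ones, which share their line of origin, 30 of the 36 genes were not called. Fas and Ddb2 were higher in the Cry/Per_KO-labelled libraries, and Bbc3, Perp, Aen and Sulf2 were lower. These 2 higher and 4 lower calls stood against 7.86% and 8.95% of all genes. Perp passed the filter only through Per/Nr1d_KO, and with these 2 groups alone 2 higher and 3 lower calls were made among 35 tested genes. The median log2 fold change was -0.14, against -0.00326 for all genes. At the low spread of these libraries small differences also reached significance, so that without the limit on the fold 31 of the 36 genes passed the adjusted p, as did 9118 of all 11934 genes.

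The levels themselves showed the same order of the groups. Both Per/Nr1d_KO libraries lay above all of the other 4 libraries for 31 of the 38 genes, and for 29 of the 36 tested, where 32.7% of all tested genes did so. Both lay below the other 4 for Plk3, Gadd45a, Rrm2b and Xpc, where 30.2% of all tested genes did so. They lay between the other groups for Ei24 and Ddb2 and overlapped with them for Sesn1. By function, the Per/Nr1d_KO libraries were on top for 7 of 9 arrest genes, 4 of 4 feedback genes and 11 of 12 apoptosis genes. They were on top for 7 of 8 metabolism genes and 2 of 5 repair genes. Among tested genes alone, this held for 6 of 8 arrest genes and 6 of 7 metabolism genes. The share of the 5 repair genes was near the 32.7% of all tested genes. In what follows, the values of each gene run from the Cry/Per/Nr1d_KO-labelled libraries through the Cry/Per_KO-labelled ones to Per/Nr1d_KO, in the order of replicate number. Of a pair of differences, the first is that of Per/Nr1d_KO from the Cry/Per/Nr1d_KO-labelled libraries and the other that from the Cry/Per_KO-labelled ones, and SE stands for the standard error of the log2 difference.

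**Figure D2:**
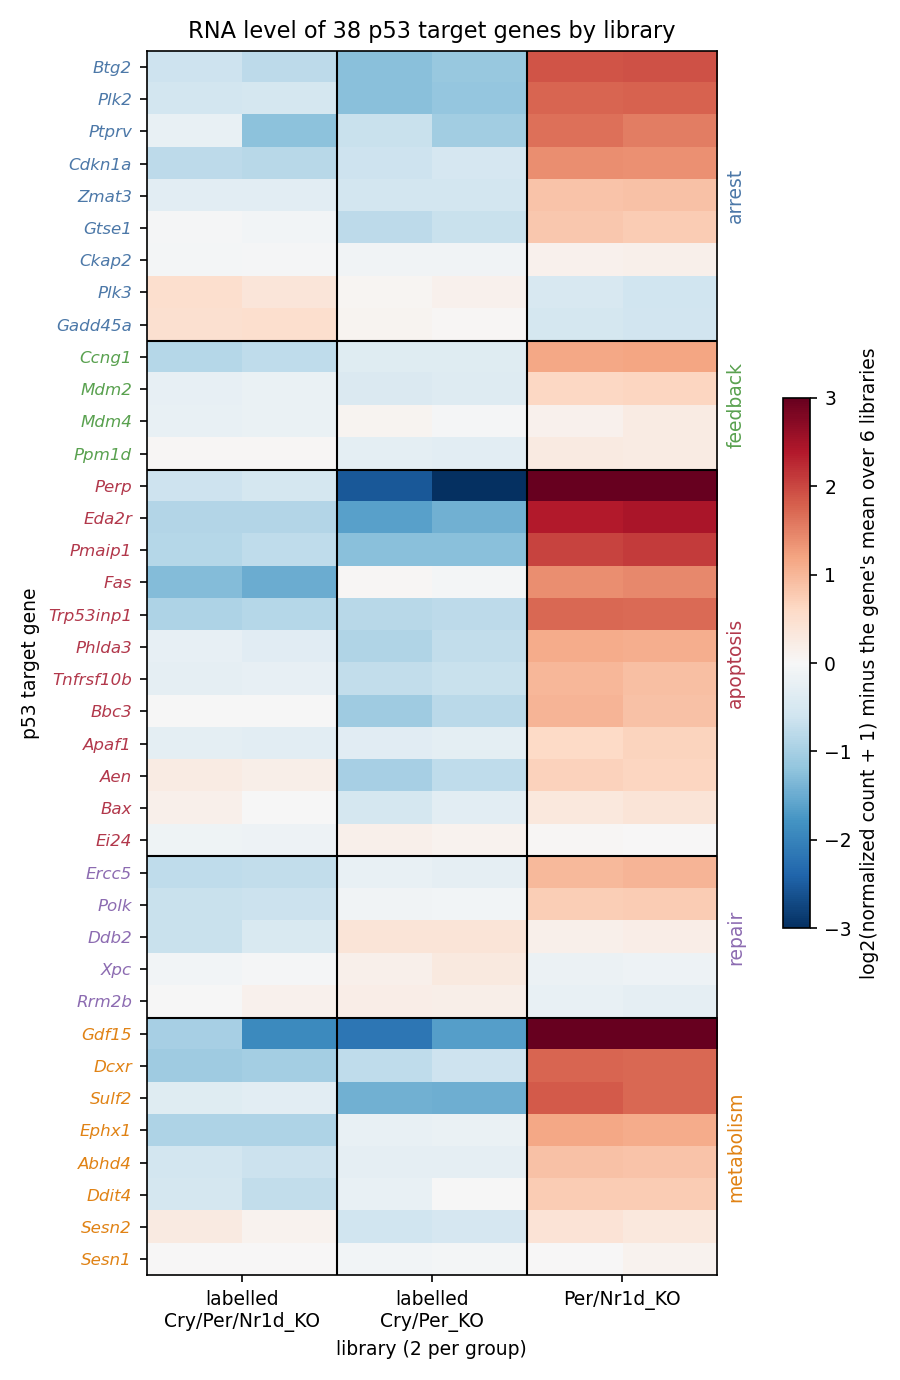
Heat map of the 38 p53 target genes (rows, grouped by function) in the 6 libraries (columns, 2 per group). Colour gives log2(normalized count + 1) minus the gene's mean over the 6 libraries, with the scale ending at -3 and 3, which Perp and Gdf15 reach; the Per/Nr1d_KO columns are the reddest of their row for 31 genes and the bluest for Plk3, Gadd45a, Rrm2b and Xpc.

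Among the arrest genes, Cdkn1a, which encodes the CDK inhibitor p21 and is the classical readout of p53, was at 5348 and 5166 normalized counts in the Cry/Per/Nr1d_KO-labelled libraries, at 5997 and 6490 in the Cry/Per_KO-labelled ones and at 24464 and 24154 in Per/Nr1d_KO. The Per/Nr1d_KO level was 4.62-fold that of the Cry/Per/Nr1d_KO-labelled libraries (log2 2.21, SE 0.049, edgeR adjusted p = 2.4e-15) and 3.89-fold that of the Cry/Per_KO-labelled libraries (log2 1.96, SE 0.048, adjusted p = 7e-15). The other groups differed by 1.19-fold, which did not pass the limit. In the annotation, 7.68% of the exon bases of Cdkn1a lie in exons of AC167363.2 on the opposite strand, and whether the counting used strand was not given.

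Btg2, an antiproliferative transcriptional cofactor, and Plk2, a kinase of the polo family induced by stress, changed more than Cdkn1a. Btg2 was at 1002 and 907 normalized counts in the Cry/Per/Nr1d_KO-labelled libraries, 648 and 709 in the Cry/Per_KO-labelled ones and 5748 and 5803 in Per/Nr1d_KO, a difference of 6.04-fold (log2 2.59, SE 0.064, adjusted p = 1e-14) and 8.5-fold (log2 3.09, SE 0.067, adjusted p = 1.7e-15). Plk2 was at 7217 and 7333, at 4449 and 4760, and at 35552 and 36172 in the same order, 4.93-fold (log2 2.30, SE 0.046) and 7.79-fold (log2 2.96, SE 0.048) higher in Per/Nr1d_KO. For both genes the Cry/Per_KO-labelled libraries were the lowest, by 1.41-fold for Btg2 and 1.58-fold for Plk2 against the Cry/Per/Nr1d_KO-labelled libraries, within the limit on the fold.

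Zmat3 and Gtse1 rose less. Zmat3, which encodes an RNA-binding zinc finger protein, was at 4192 and 4210 normalized counts in the Cry/Per/Nr1d_KO-labelled libraries, 3539 and 3580 in the Cry/Per_KO-labelled ones and 9453 and 9539 in Per/Nr1d_KO (log2 1.18, SE 0.044, and 1.42, SE 0.045, the latter 0.54 and not called after subtraction of the median of chromosome 3). Gtse1, whose microtubule-binding product moves p53 out of the nucleus in G2, was at 6471 and 6180, 3853 and 4141, and 11519 and 11161 (log2 0.84, SE 0.049, in the first comparison, and 2.84-fold higher in the second). The 3 groups were separate for both genes, although the first Gtse1 difference lay close to the limit and was lost in a test against the limit itself (adjusted p = 0.5).

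Gadd45a and Plk3 went the other way. Gadd45a, a stress sensor that inhibits CDK1, was at 1730 and 1752 normalized counts in the Cry/Per/Nr1d_KO-labelled libraries, 1319 and 1271 in the Cry/Per_KO-labelled ones and 868 and 840 in Per/Nr1d_KO. It fell by 1.03 on the log2 scale against the first group (SE 0.065, adjusted p = 1e-09), while -0.60 (SE 0.066) against the second was within the limit. Plk3, a further polo-family kinase, was at 1660 and 1523, 1231 and 1291, and 850 and 778, with log2 differences of -0.97 (SE 0.074, adjusted p = 9.7e-09) and -0.64 (SE 0.075). Both genes were thus lowest in the group in which Cdkn1a was highest. For Gadd45a, 19.1% of the exon bases are shared with E230016M11Rik on the opposite strand.

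The last 2 arrest genes were Ckap2 and Ptprv. Ckap2, a spindle protein, varied little, from 9527 to 11476 normalized counts, with both Per/Nr1d_KO libraries on top (log2 0.18, SE 0.041, and 0.25, SE 0.042, not called). Ptprv, a receptor phosphatase whose protein halts fibroblasts in G1, was low everywhere, at 23.1 and 11.1 normalized counts in the Cry/Per/Nr1d_KO-labelled libraries, 16.7 and 12.8 in the Cry/Per_KO-labelled ones and 87.5 and 80.5 in Per/Nr1d_KO. In an edgeR fit without the filter on low counts (20375 genes), Ptprv was 2.23 (SE 0.27, adjusted p = 1.3e-15) and 2.5 (SE 0.29, adjusted p = 1.4e-17) higher in Per/Nr1d_KO on the log2 scale.

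The feedback genes limit p53 itself. Mdm2 was at 8702 and 9001 normalized counts in the Cry/Per/Nr1d_KO-labelled libraries, 7603 and 7934 in the Cry/Per_KO-labelled ones and 15798 and 15982 in Per/Nr1d_KO. This was 1.8-fold (log2 0.84, SE 0.043, adjusted p = 7.8e-11) and 2.05-fold (log2 1.03, SE 0.044, adjusted p = 5.3e-12) higher in Per/Nr1d_KO. The first of these was also just over the limit and did not pass the test against the limit itself (adjusted p = 0.39). Ccng1, which encodes cyclin G1, a partner of the phosphatase PP2A that acts on MDM2, was at 7113 and 7556, 10009 and 9887, and 28563 and 28846, 3.92-fold (log2 1.97, SE 0.045) and 2.89-fold (log2 1.53, SE 0.044) higher in Per/Nr1d_KO. Mdm4, the MDM2 partner that masks the p53 activation domain, ranged from 3312 to 4581 and the p53 phosphatase gene Ppm1d from 1095 to 1655, and neither was called in any comparison. Of the 50-base stretches in Mdm4 transcripts, 7.31% also occur in other genes, most often Mdm4-ps.

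The largest differences among the tested genes were in apoptosis genes. Perp, which encodes a membrane protein of desmosomes and p53-dependent death, was at 149 and 161 normalized counts in the Cry/Per/Nr1d_KO-labelled libraries, 39 and 25.5 in the Cry/Per_KO-labelled ones and 2378 and 2533 in Per/Nr1d_KO. Per/Nr1d_KO was 15.9-fold higher than the first group (log2 3.99, SE 0.097, adjusted p = 8.1e-15) and 76.9-fold higher than the second (log2 6.26, SE 0.13, adjusted p = 7.6e-16). Perp also separated the other groups, being 4.84-fold lower in the Cry/Per_KO-labelled libraries (log2 -2.27, SE 0.18, adjusted p = 2.6e-08). That test was open to Perp only through its level in Per/Nr1d_KO, since with these 2 groups alone it fell under the filter and 35 of the 38 genes were tested. Perp also entered the comparisons with Per/Nr1d_KO only through that level, so the filter was not independent of these differences. The epithelial marker Cdh1 was higher in Per/Nr1d_KO too, at 100 and 110 against 27.8 or fewer normalized counts in the other libraries, while Epcam, Krt8, Krt18 and Krt14 were at 33.3 or fewer in all, and the part of such cells in the Perp level was not tested.

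Among the genes of the mitochondrial route, Pmaip1 (NOXA) and Bbc3 (PUMA) encode BH3-only proteins that neutralize BCL2 relatives, and Bax encodes the pore former. Pmaip1 was at 377 and 401 normalized counts in the Cry/Per/Nr1d_KO-labelled libraries, 287 and 285 in the Cry/Per_KO-labelled ones and 2772 and 2912 in Per/Nr1d_KO, 7.32-fold (log2 2.87, SE 0.073) and 9.94-fold (log2 3.31, SE 0.076) higher. Bbc3 was at 435 and 432, 207 and 250, and 880 and 799, with log2 differences of 0.95 (SE 0.095, adjusted p = 2.6e-07) and 1.86 (SE 0.1, adjusted p = 1.5e-10), the first of which did not pass the test against the limit (adjusted p = 0.14). Bax differed far less than either, from 5598 and 4952, through 3504 and 4015, to 6260 and 6548, and was not called (log2 0.28, SE 0.066, and 0.77, SE 0.067). Without the second Cry/Per_KO-labelled library its latter difference became 0.87 and passed. Of the exon bases of Bax, 12.2% lie in Gm45808 on the same strand.

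Apaf1, the scaffold of the apoptosome downstream of these proteins, was at 4403 and 4313 normalized counts in the Cry/Per/Nr1d_KO-labelled libraries, 4276 and 4391 in the Cry/Per_KO-labelled ones and 8215 and 8582 in Per/Nr1d_KO, 1.93-fold and 1.94-fold higher (SE 0.046 on the log2 scale in both). The 4 libraries of the other groups overlapped. Bbc3 and Apaf1 thus rose by similar factors against the Cry/Per/Nr1d_KO-labelled libraries, while between the other groups Bbc3 was called (log2 -0.92, SE 0.11, adjusted p = 2.3e-06) and Apaf1 lay at a log2 difference of -0.00822 (SE 0.047). That Bbc3 call was not kept without the first Cry/Per_KO-labelled library (-0.79), in the test against the limit (adjusted p = 0.42), or after subtracting the median of chromosome 7 (-0.65).

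The death receptor genes rose as well. Fas encodes the receptor of FAS ligand, Tnfrsf10b the mouse TRAIL receptor and Eda2r, on the X chromosome, a receptor for ectodysplasin A2. Eda2r was at 536 and 538 normalized counts in the Cry/Per/Nr1d_KO-labelled libraries, 319 and 362 in the Cry/Per_KO-labelled ones and 5175 and 5436 in Per/Nr1d_KO, 9.89-fold (log2 3.31, SE 0.068, adjusted p = 1.2e-15) and 15.5-fold (log2 3.96, SE 0.073, adjusted p = 2.6e-16) higher. Fas was at 524 and 464, 1330 and 1243, and 3454 and 3517, so that the groups formed 3 steps. Here the Cry/Per_KO-labelled libraries lay 2.59-fold above the Cry/Per/Nr1d_KO-labelled ones (log2 1.37, SE 0.075, adjusted p = 3.6e-10), opposite to Perp and Bbc3, and Per/Nr1d_KO lay 7.03-fold and 2.71-fold above the 2 groups. Tnfrsf10b was at 2157 and 2178, 1535 and 1627, and 5165 and 4861 (log2 1.21, SE 0.055, and 1.66, SE 0.056). For Tnfrsf10b the first difference fell within the limit after subtraction of the median of chromosome 14 (0.69), and 6.21% of its 50-base stretches occur in other genes.

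Trp53inp1, whose product works with p53 and in autophagy, was nearly level between the first 2 groups, at 1294 and 1345 and at 1368 and 1417 normalized counts, and reached 8040 and 8023 in Per/Nr1d_KO. It was 6.09-fold (log2 2.61, SE 0.052) and 5.77-fold (log2 2.53, SE 0.052) higher there. Phlda3, which encodes a PH domain protein that restrains AKT, was at 4226 and 3959, 2648 and 2992, and 10756 and 10616 (log2 1.38, SE 0.057, and 1.92, SE 0.058). Both genes were called higher in each comparison with Per/Nr1d_KO. Aen, an exonuclease that helps to digest nuclear DNA in apoptosis, was at 2365 and 2244, 1007 and 1180, and 3221 and 3093. Its log2 difference was 0.45 (SE 0.067, not called) from the Cry/Per/Nr1d_KO-labelled libraries and 1.53 (SE 0.072, adjusted p = 1.9e-11) from the Cry/Per_KO-labelled ones, which were themselves lower than the former (log2 -1.07, SE 0.072, adjusted p = 3.5e-09, or -0.81 and not called after subtracting the chromosome median). Ei24, an autophagy and endoplasmic reticulum protein gene, ranged from 7069 to 8786, and its groups did not follow the pattern of the others, being highest in the Cry/Per_KO-labelled libraries.

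**Figure D3:**
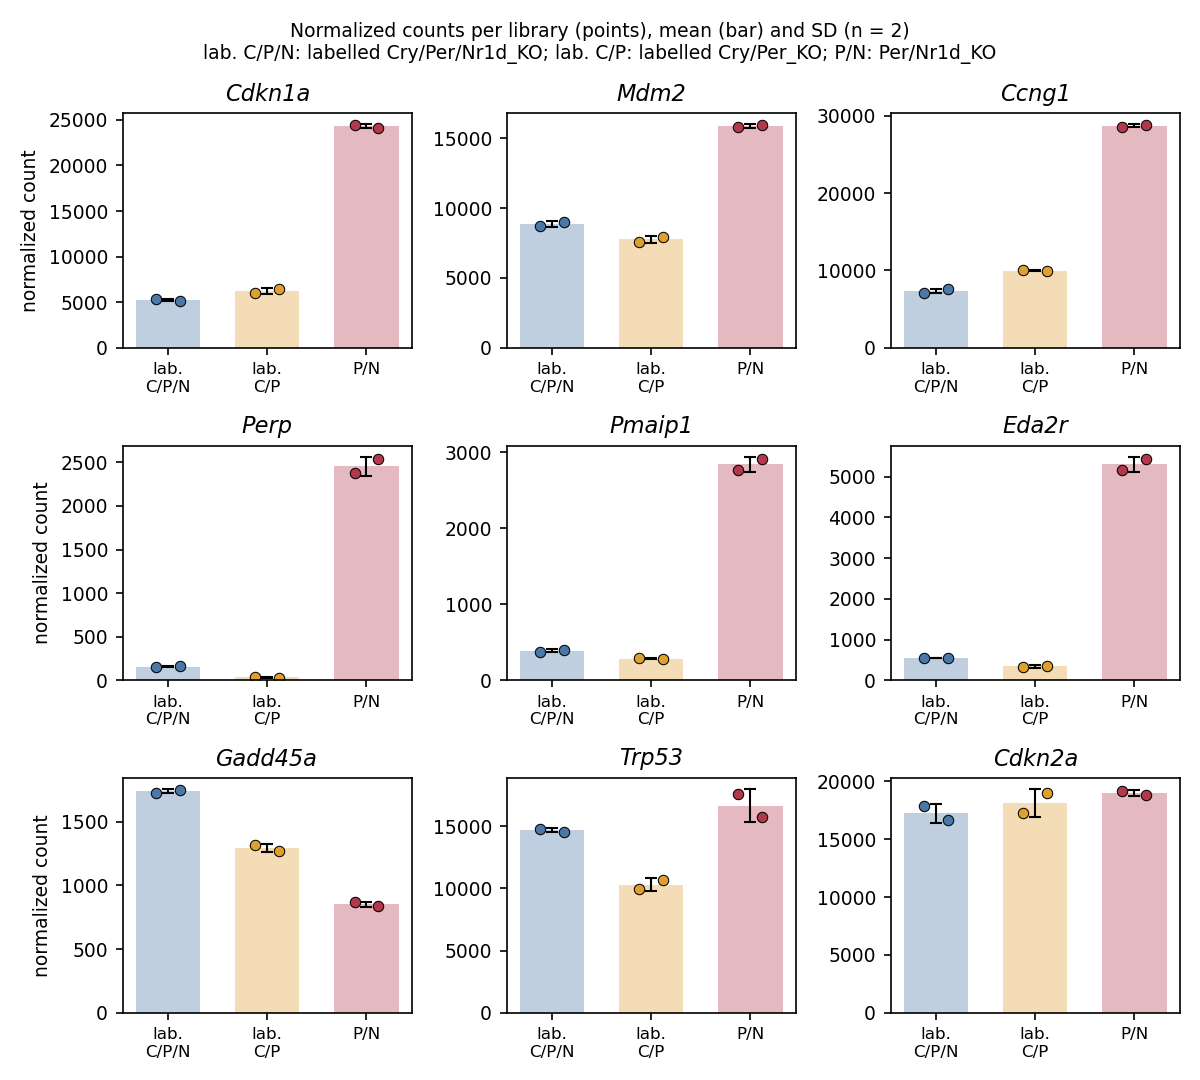
Normalized counts (vertical axes, from 0) of 7 p53 target genes and of Trp53 and Cdkn2a in the 2 libraries of each group (points), with the mean (bar) and SD (error bar, n = 2). Per/Nr1d_KO stands above the other groups for Cdkn1a, Mdm2, Ccng1, Perp, Pmaip1 and Eda2r and below them for Gadd45a, whereas Cdkn2a RNA lies between 16647 and 19187 in all libraries.

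The repair genes were divided. Ercc5, the endonuclease XPG of nucleotide excision repair, was at 1263 and 1286 normalized counts in the Cry/Per/Nr1d_KO-labelled libraries, 1831 and 1793 in the Cry/Per_KO-labelled ones and 4236 and 4337 in Per/Nr1d_KO, 3.36-fold (SE 0.055 on the log2 scale, adjusted p = 1.8e-13) and 2.37-fold (SE 0.054, adjusted p = 6.6e-12) higher. Polk, a translesion DNA polymerase, was at 1785 and 1817, 2671 and 2708, and 4732 and 4842 (log2 1.41, SE 0.051, and 0.83, SE 0.049). The latter Polk difference was barely past the limit and did not pass the test against the limit (adjusted p = 0.47). For both genes the Cry/Per_KO-labelled libraries lay between the other groups.

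The damage recognition genes Ddb2 and Xpc and the ribonucleotide reductase subunit gene Rrm2b were not called in either comparison with Per/Nr1d_KO. Ddb2 was at 234 and 270 normalized counts in the Cry/Per/Nr1d_KO-labelled libraries, 493 and 492 in the Cry/Per_KO-labelled ones and 417 and 428 in Per/Nr1d_KO. Its difference of 0.76 (SE 0.1) from the Cry/Per/Nr1d_KO-labelled libraries lay within the limit, and at 0.87 past it after subtraction of the chromosome median. It was called only between the first 2 groups (log2 0.97, SE 0.1, adjusted p = 4.6e-07), a call that was lost in the test against the limit (adjusted p = 0.14), and 23.8% of its exon bases are shared with Acp2 on the opposite strand. Xpc was between 959 and 1316 and Rrm2b between 1184 and 1653, both lowest in the Per/Nr1d_KO libraries. Their log2 differences from the Cry/Per_KO-labelled libraries were -0.38 (SE 0.072) and -0.44 (SE 0.069), within the limit. In Rrm2b, 10.7% of the 50-base stretches occur in other genes.

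Of the metabolism and stress genes, Dcxr, Sulf2 and Ephx1 differed most among those tested. Dcxr, which encodes dicarbonyl/L-xylulose reductase, was at 394 and 409 normalized counts in the Cry/Per/Nr1d_KO-labelled libraries, 486 and 536 in the Cry/Per_KO-labelled ones and 2763 and 2736 in Per/Nr1d_KO, 6.85-fold (log2 2.78, SE 0.074) and 5.37-fold (log2 2.42, SE 0.072) higher. Sulf2, an extracellular heparan sulfate 6-O-endosulfatase, was at 3734 and 3830, 1769 and 1736, and 17112 and 15690, 4.34-fold (log2 2.12, SE 0.051) and 9.36-fold (log2 3.23, SE 0.055) higher. It was 2.16-fold lower in the Cry/Per_KO-labelled libraries than in the Cry/Per/Nr1d_KO-labelled ones (log2 -1.11, SE 0.054, adjusted p = 9.8e-11). Ephx1, microsomal epoxide hydrolase, was at 2973 and 2989, 4884 and 4952, and 12586 and 12302, 4.17-fold and 2.53-fold higher in Per/Nr1d_KO. Sulf2 and Ephx1 therefore ranked the first 2 groups in opposite order while sharing Per/Nr1d_KO as the highest.

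Abhd4, an N-acyl phospholipid hydrolase, was at 2538 and 2352 normalized counts in the Cry/Per/Nr1d_KO-labelled libraries, 3054 and 3039 in the Cry/Per_KO-labelled ones and 6775 and 6711 in Per/Nr1d_KO (log2 1.46, SE 0.051, and 1.15, SE 0.05, the latter 0.52 and not called after subtraction of the median of chromosome 14). Ddit4, which encodes the mTORC1 inhibitor REDD1, was at 3999 and 3454, 4975 and 5716, and 9818 and 9776 (log2 1.39, SE 0.069, and 0.87, SE 0.068). The smaller Ddit4 difference did not pass the test against the limit, and it was 0.78, within the limit, without the first Cry/Per_KO-labelled library. The sestrins also restrain mTORC1. Sesn2 was at 4022 and 3635, 2204 and 2389, and 4457 and 4211, called only against the Cry/Per_KO-labelled libraries (log2 0.91, SE 0.062, adjusted p = 1.6e-09, but adjusted p = 0.061 in the test against the limit). Sesn1 ranged from 2540 to 2911 and was not called in any comparison.

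Gdf15, a secreted stress cytokine, was almost silent outside Per/Nr1d_KO. Its normalized counts were 11.5 and 5.6 in the Cry/Per/Nr1d_KO-labelled libraries and 4.5 and 6.9 in the Cry/Per_KO-labelled ones, against 270 and 241 in Per/Nr1d_KO. The fit without the filter gave log2 differences of 4.82 (SE 0.24, adjusted p = 2.1e-91) and 5.44 (SE 0.26, adjusted p = 2.1e-95). With few counts in the other groups, such fitted values depend on the prior count.

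**Figure D4:**
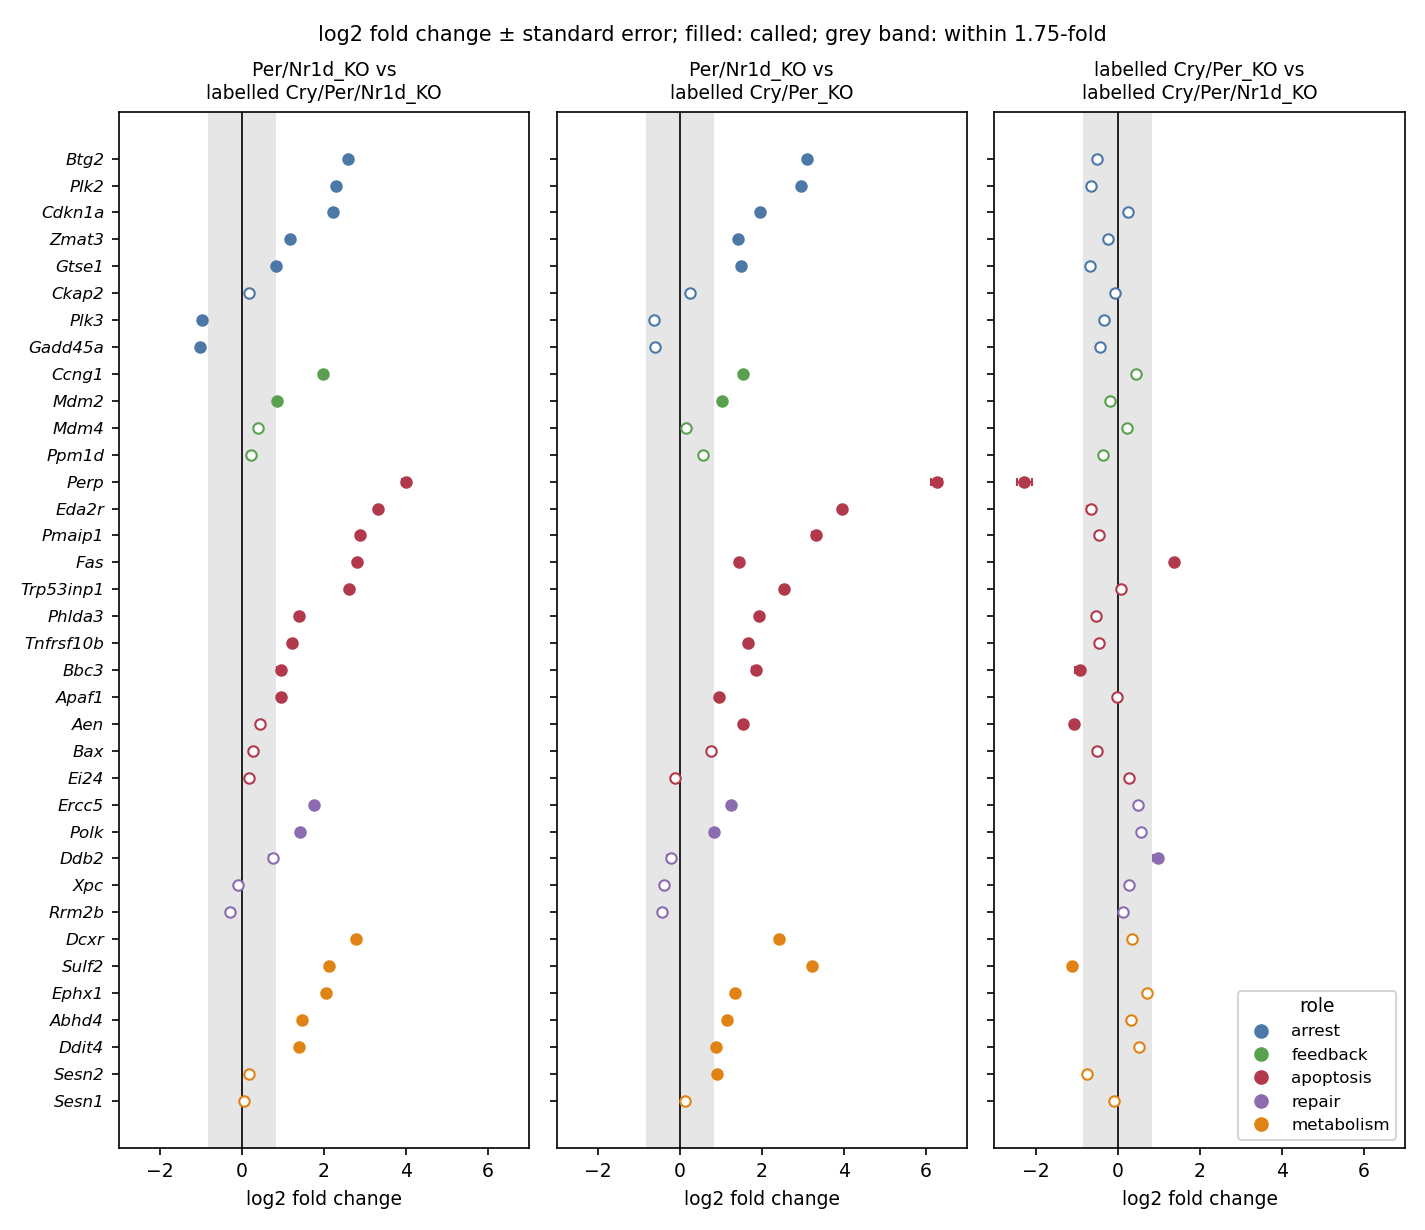
Log2 fold change (horizontal axes) with its standard error of the 36 tested p53 target genes (rows, coloured by function) in the 3 comparisons. Filled points were called and the grey band marks changes within the limit of 75%; 23 and 25 filled points lie to the right in the comparisons with Per/Nr1d_KO, 2 lie to the left in the first, and 6 are filled in the last.

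Divided by exon length, the most abundant p53 target RNAs in Per/Nr1d_KO were Ccng1 at 8173.2 normalized counts per kb of exon, Plk2 at 7985.3, Phlda3 at 6854.3 and Cdkn1a at 6841.8 (means of 2 libraries). In the Cry/Per/Nr1d_KO-labelled libraries the order on this scale was led by Bax at 3347.1 per kb, Ckap2 at 3114.5 and Phlda3 at 2625.2, and in the Cry/Per_KO-labelled ones by Ddit4 at 3045.8, Ckap2 at 2981.6 and Ccng1 at 2832.5. Perp, which changed most among the tested genes, was low by the same measure outside Per/Nr1d_KO, at 79.46, 16.52 and 1257.8 per kb in the 3 groups. Ptprv stayed lowest in each, at 2.446, 2.108 and 12.02.

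The medians of whole chromosomes also differed between the lines, and several members lay on such chromosomes. The median log2 fold change of the tested genes of chromosome 3, where Zmat3 lies, was 0.88 between Per/Nr1d_KO and the Cry/Per_KO-labelled libraries. That of chromosome 14, which holds Tnfrsf10b and Abhd4, was 0.62, and that of chromosome 9, which holds Ei24, was -0.84. With the chromosome median subtracted, Zmat3 (0.54), Abhd4 (0.52) and Ddit4 (0.77, chromosome 10) were within the limit in this comparison, and Gtse1 (0.81) and Tnfrsf10b against the Cry/Per/Nr1d_KO-labelled libraries. The number of the 36 genes called was then 24 for Per/Nr1d_KO against the Cry/Per/Nr1d_KO-labelled libraries, 22 against the Cry/Per_KO-labelled ones and 5 between these groups, and over all 11934 genes it was 2335, 2765 and 1640. Ddb2 passed the limit in the first of these comparisons (0.87) and Plk2 in the last (-1.01). In the first, Cdkn1a kept a log2 difference of 2.25 and Mdm2 of 0.88 by this measure, and in the second 1.82 and 0.93.

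The RNA of p53 and of its regulators was compared in the same fit, to see which of them moved with the targets. Trp53 was at 14801 and 14582 normalized counts in the Cry/Per/Nr1d_KO-labelled libraries, 9927 and 10656 in the Cry/Per_KO-labelled ones and 17597 and 15713 in Per/Nr1d_KO. It was highest in Per/Nr1d_KO, yet its log2 differences of 0.18 (SE 0.054, adjusted p = 0.0069) and 0.69 (SE 0.054) were within the limit, and 3.95% of its 50-base stretches occur in other genes, most often Trp53-ps. Cdkn2a, the locus of ARF and INK4A, was at 17841 and 16647, 17290 and 18984, and 19187 and 18811, with overlapping groups (log2 0.14 and 0.07, SE 0.051). Of the related factors, Trp63 and Trp73 were below the filter.

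Of the 27 tested genes in the list of regulators and apoptosis partners, 3 were called between Per/Nr1d_KO and the Cry/Per/Nr1d_KO-labelled libraries, 1 higher and 2 lower against 11.3% and 9.35% of all genes. Bcl2l11, a further BH3-only gene, was higher (log2 0.96), and the deacetylase gene Sirt1 (-0.82) and the survival gene Bcl2 (-1.68) were lower. With the median of chromosome 10 (-0.0325) subtracted, the Sirt1 difference fell within the limit. Bcl2 was at 1052 and 1054 normalized counts, at 815 and 846, and at 350 and 314 in Per/Nr1d_KO, and was lower there in both comparisons (-1.33 in the other). Against the Cry/Per_KO-labelled libraries, the acetyltransferase gene Kat5 and the methyltransferase gene Prmt5 were higher, both by 0.92 on the log2 scale, and the damage-signalling kinase genes Atr (-1.20), Chek1 (-1.09) and Hipk2 (-0.93) were lower. With Bcl2 these were 2 higher and 4 lower calls, against 15.2% and 13.8% of all genes. In this comparison the median was -0.838 on chromosome 9, which holds Atr and Chek1, and -0.413 on chromosome 6, which holds Hipk2. It was 0.622 on chromosome 14, which holds Prmt5, and 0.215 on chromosome 19, which holds Kat5. With the chromosome medians subtracted, all of these differences but that of Bcl2 fell within the limit. Atm, which encodes the kinase that signals DNA breaks to p53, Chek2 and Usp7 were not called in any comparison. The median of the list was 0.08 and 0.11, near that of all genes. None of the 27 was called between the Cry/Per_KO-labelled and the Cry/Per/Nr1d_KO-labelled libraries by edgeR or DESeq2. There edgeR called 7.86% of all genes higher and 8.95% lower. Whatever the fold, 18 of the 27 passed an unadjusted p under 0.05, and the same 18 passed the adjusted p. Without the limit on the fold, 9118 of all 11934 genes passed the adjusted p.

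A list of 22 further p53 targets, outside the 38, had 21 genes above the filter and was less uniform. Comparing Per/Nr1d_KO to the Cry/Per/Nr1d_KO-labelled libraries, 10 were called higher (among them Pidd1, Siva1, Rprm, Thbs1, Pltp, Tap1, Pml, Ak1 and Psrc1) and 3 lower (Gls2, Steap3 and Igfbp3), with a median log2 difference of 0.68. Of all genes, 11.3% were higher and 9.35% lower in that comparison. Rprm is in the count of higher genes and passed the filter only through its level in Per/Nr1d_KO. Its means were 74.27 normalized counts in the Cry/Per/Nr1d_KO-labelled libraries, 107.3 in the Cry/Per_KO-labelled ones and 182.1 in Per/Nr1d_KO. For Rprm, the filter was thus not independent of the call. Comparing to the Cry/Per_KO-labelled libraries, 8 were called higher (among them Pidd1, Igfbp3, Thbs1, Pltp, Tap1, Ak1 and Psrc1) and 2 lower (Gls2 and Ninj1), with a median of 0.77, where 15.2% and 13.8% of all genes were. Psrc1, a spindle protein gene, was at 702 and 691 normalized counts, 244 and 289, and 5999 and 5957 in Per/Nr1d_KO, the same order as Perp and Plk2. Igfbp3, an IGF-binding protein gene, was instead highest in the Cry/Per/Nr1d_KO-labelled libraries, at 1140 and 1164, against 27.8 and 24.5 and against 606 and 492 in Per/Nr1d_KO. Between the Cry/Per_KO-labelled and the Cry/Per/Nr1d_KO-labelled libraries, Pml and Trp53cor1 were higher in the former and Igfbp3, Thbs1, Pltp and Psrc1 were lower, where 7.86% and 8.95% of all genes were. With the chromosome medians subtracted, Pml (chromosome 9, median 0.376), Pltp (chromosome 2, -0.193) and Psrc1 (chromosome 3, -0.645) fell within the limit there. Against the Cry/Per/Nr1d_KO-labelled libraries, Siva1 in Per/Nr1d_KO fell within the limit by this measure and Ninj1 passed it. Against the Cry/Per_KO-labelled ones, Siva1 and Steap3 passed it.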

How the data were processed

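Poly-A RNA of 6 libraries was sequenced from stranded libraries. Per the labels, the authors used STAR for alignment (mm10) and featureCounts for gene-level counting. The deposited counts used here are raw whole numbers by Entrez Gene ID. Strand and multi-mapping settings were not given in the sources used here. The authors' DESeq2 1.22.2 tables (mean levels, log2 fold changes and p-values of their own comparisons) were not used. Symbols were matched for 25275 of 27179 IDs (93%).

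Groups followed the described genotypes. The analysis used edgeR 4.0.16 and limma 3.58.1 under R 4.3.3. The 11934 genes whose mean reached 100 normalized counts entered 1 quasi-likelihood fit of the 6 libraries with TMM normalization and 3 groups, with Benjamini-Hochberg adjustment over all of them. Genes were called at an adjusted p under 0.05 and a change above 75%. Normalized counts are counts scaled to the mean effective library size. SE is the log2 fold change divided by the square root of F. The 3 comparisons share libraries. Every member called in any comparison, and Cdkn1a, Mdm2, Ccng1, Bax, Gtse1, Ckap2, Trp53 and Cdkn2a, was given by library. The members and lists were chosen with earlier results of these data known. A gene of the list of further p53 targets is counted with its list but not reported here. Shared exons and 50-base stretches were computed from the GENCODE annotation of the same assembly. Alternatives included DESeq2 1.42.0, other filters, normalization and limits, leaving out each library, and subtracting chromosome medians. The procedure was tested on simulated data.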

Additional observations from a re-analysis of the deposited data

How the results depend on the processing

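The number of p53 targets called stayed between 22 and 27 in both comparisons with Per/Nr1d_KO, and between 4 and 7 between the Cry/Per_KO-labelled and the Cry/Per/Nr1d_KO-labelled libraries, under every alternative but the removal of the limit on the fold. Without that limit it was 34, 36 and 31 in these comparisons. No difference that was called changed sign. Among differences not called, subtracting the chromosome median turned the sign of that between Per/Nr1d_KO and the Cry/Per_KO-labelled libraries for Xpc (-0.38 to 0.03), Ei24 (-0.11 to 0.73) and Mdm4 (0.16 to -0.10), and of that between the other groups for Zmat3 (-0.24 to 0.41), Ei24, Apaf1, Xpc and Sesn1. Leaving out each library gave 25 to 27 and 25 to 27 calls against Per/Nr1d_KO and 5 to 7 between the other groups.

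Counts over all genes also moved under the filters. For Per/Nr1d_KO against the Cry/Per/Nr1d_KO-labelled libraries, 2468 genes were called, 4576 without a filter on expression, 3912 with a mean of at least 10 and 9042 without the limit on the fold. For Per/Nr1d_KO against the Cry/Per_KO-labelled ones, 3457 were called, 5590 without a filter and 9793 without the limit on the fold. Between the Cry/Per_KO-labelled and the Cry/Per/Nr1d_KO-labelled libraries, 2006 were called, 3808 without a filter, 3311 with a mean of at least 10, 9118 without the limit on the fold and 1147 with DESeq2 at the adjusted p limit of the study. Weaker filters test more genes, and the last change came with the stricter limit, since DESeq2 at an adjusted p under 0.05 called 1990.

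The replicate numbers did not pair the libraries (correlations of the deviations of same-numbered libraries of -0.188, -0.0843 and -0.02). With the replicate number as a block, 25, 25 and 6 p53 targets and 2468, 3457 and 2002 genes were called. A crossed pairing of the Cry/Per_KO-labelled libraries, tried after seeing the data, gave 6 p53 targets and 2004 genes. Counting error weighed most on genes of few counts, such as Gdf15, Ptprv, Perp, Bbc3 and Ddb2, and 2 libraries per group limit all errors.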

Other observations

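A pair of further lists touches on the functions of the p53 targets. Of 14 proliferation genes, Ccnb2, which encodes cyclin B2, was lower in Per/Nr1d_KO in both comparisons (log2 -1.19 and -1.96). Its normalized counts were 9410 and 9745 in the Cry/Per/Nr1d_KO-labelled libraries, 15988 and 16582 in the Cry/Per_KO-labelled ones and 4259 and 4136 in Per/Nr1d_KO. Mki67, the gene of the Ki-67 antigen, was lower against the Cry/Per/Nr1d_KO-labelled libraries (-0.91) and at -0.75, within the limit, against the Cry/Per_KO-labelled ones. With the median of chromosome 9 subtracted (-0.462 and -0.838), the first Ccnb2 difference fell within the limit and the second stayed past it. With that of chromosome 7 subtracted (-0.109 and 0.154), Mki67 fell just within the limit in the first comparison and passed it in the second. The other 12 were not called, and the median of the list was -0.49 and -0.31, with 12 and 10 of the 14 genes below 0. Of all 11934 genes tested, 9.35% and 13.8% were called lower in these comparisons, and 5859 and 5701 were below 0.

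Of 10 genes of the amino acid and endoplasmic reticulum stress response driven by ATF4, which also acts on Sesn2 and Ddit4, Atf3 was higher in Per/Nr1d_KO in both comparisons (1.42 and 2.44), at 1314 and 1331 normalized counts there against 511 and 473 and against 218 and 266. Phgdh was called higher in the second (1.19), a difference within the limit after subtraction of the median of chromosome 3 (0.879). Of all genes, 11.3% and 15.2% were called higher. Against the Cry/Per/Nr1d_KO-labelled libraries 8 of the 10 lay below 0, with a median of -0.21, among them Atf4 (-0.62), Trib3 (-0.70) and Chac1 (-0.66), none of these called. Between the Cry/Per_KO-labelled and the Cry/Per/Nr1d_KO-labelled libraries, Trib3 (-0.81), Atf3 (-1.02), Phgdh and Slc7a11 were lower in the former, where 8.95% of all genes were. With the chromosome medians subtracted, Phgdh and Slc7a11 (chromosome 3, median -0.645) and Trib3 (chromosome 2, -0.193) fell within the limit. Atf3 stayed past it.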
